A study of Mus musculus with 4 samples.

Results

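Ccl2, Cxcl1, Cxcl2, Cxcl5, Cxcl16, Ccl20, Csf1, Lif and Lcn2 encode inflammatory chemokines, cytokines and a lipocalin that tumour stroma and stressed epithelium secrete. These 9 genes were taken by name from the gene symbols in the MU table, and their gene identifiers gave the entries of the WT table. All 9 members were listed in both tables, among 13478 genes that both tables list. No member was left out, and no filter on low levels was applied.

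The libraries came from RNA immunoprecipitation (RIP), in which an antibody recovers a protein together with the RNA bound to it. The cells, of the line 15376CAFs, were mouse CAFs of the pancreas by their label, that is, fibroblasts of a carcinoma's stroma, and they overexpressed Flag-tagged Lin28b. In the WT samples this was the unaltered wild-type protein, and in the MU samples a mutant described as deficient in RNA binding. The sources used here do not state which residues the mutant alters. Each construct had 1 anti-Flag immunoprecipitate (IP) and 1 input, which gave 4 groups of 1 library. All were labelled as the same cell type, with the same tag and antibody. No untagged control was analysed here. With 1 library a group there was no replicate check and no test between conditions, so every value below describes single libraries. Gene levels were read as FPKM, fragments scaled to gene length and to library size, and library depth is unknown.

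Lin28b is an RNA-binding protein of embryonic cells and many tumours. It binds let-7 precursors and blocks their maturation, and it also binds many mRNAs. Chemokines are small secreted proteins that steer leukocytes along gradients. Their genes are short and many of them respond to NF-kB, and their mRNAs are mostly short-lived. In pancreatic tumours such factors are known as products of both cancer cells and inflammatory fibroblasts, and they draw in neutrophils and monocytes.

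The labelled cell type was set against marker genes in the inputs. Both tables listed 7 of 10 epithelial markers, with a summed level of 2062 FPKM in the WT input, 1392 in the MU input, 1265 in the WT IP and 639 in the MU IP. In the WT and MU inputs the keratin genes Krt19, Krt8 and Krt18 stood at 665 and 322, 601 and 494, and 395 and 441. Muc1 stood at 134 and 6.77 and Krt7 at 31.7 and 3.32. Of 14 pan-fibroblast markers, 6 were listed in both, at a sum of 820 in the WT input and 708 in the MU input, nearly all of it from Vim, Fn1 and Sparc. The collagen gene Col1a1 stood at 0.722 and 0.404, Pdgfra at 1.33 and 0.860, and Acta2 at 0.227 and 0.524. In both inputs the epithelial sum was thus above the pan-fibroblast sum. These markers do not match a plain fibroblast label, and which cells the RNA came from was not tested. Of 12 macrophage and leukocyte markers, 3 were listed in both, led by Cd14 at 40.1 in the WT and 46.7 in the MU input. Cd68 stood at 0.704 and 2.45 and Cd74 at 0.193 and 0.580, both low but at least 2-fold higher in the MU input. The leukocyte gene Ptprc and the macrophage genes Adgre1 and Csf1r were not listed in both. None of 7 endothelial markers was listed in both tables. Of 10 inflammatory CAF markers 5 were listed in both, 3 of them members, at a sum of 104 in the WT input and 221 in the MU input. Most of that sum came from the members Cxcl1, Ccl2 and Lif, so it is no separate check of the label. The others, Ly6c1 and C3, stood at 0.693 and 8.87 in the WT input and at 19.2 and 14.3 in the MU input. Lin28b stood at 13.8 FPKM in the WT input and 30.01 in the MU input, and the actin gene Actb at 1386 and 1261, with log2 ratios of IP over input of −1.02 in WT and −1.64 in MU.

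The first comparison was between the inputs, which show how much of each RNA was there to be recovered. Cxcl1 and Lcn2 were the members with the most excess in the MU input, 37.7-fold and 25.7-fold, and Cxcl16 was 83.0-fold higher in the WT input. The Cxcl16 value depends on the pseudocount, since its MU input is low. Ccl2 and Lif differed little, by 1.12-fold and 1.202-fold. In total 4 of 9 members were at least 2-fold higher in the MU input (Cxcl1, Lcn2, Ccl20 and Csf1), against 8.70% of all genes in both tables. The other direction held 2 of 9 (Cxcl16 and Cxcl2), against 8.32% of all genes. A gap of at least 16-fold, a limit chosen after the values were seen, was present for Cxcl1 and Lcn2 towards MU, against 1.39% of all genes, and for Cxcl16 towards WT, against 0.905%. Summed over the 9 members the level was 512 FPKM in the WT input, 542 in the WT IP, 1073 in the MU input and 624 in the MU IP. The authors scaled each table on its own, and in such bulk libraries fewer cells of a type and less RNA per cell cannot be told apart. Of the 7 epithelial markers listed in both tables, 3 were at least 2-fold higher in the WT input and 0 in the MU input, and their part in these differences was not tested.

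**Figure D1:**
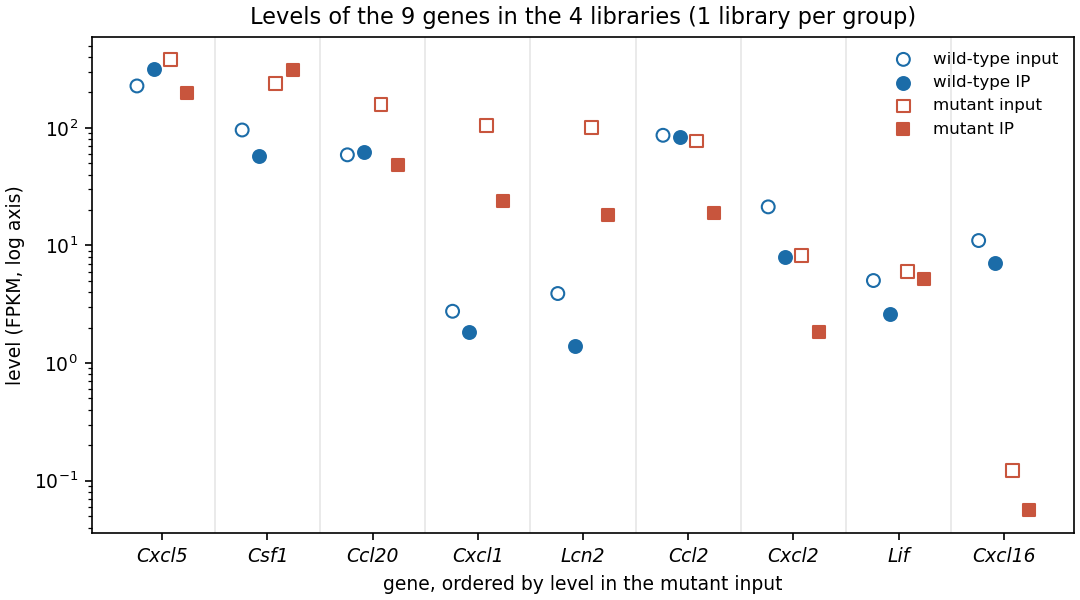
Level of each of the 9 genes (FPKM, log axis) in the WT input and IP (blue circles, open and filled) and the MU input and IP (red squares, open and filled), 1 library per point. Cxcl1 and Lcn2 lie near 100 FPKM in the MU input (104 and 100.4) and below 5 in the WT input, whereas Cxcl16 stands at 11.01 in the WT input and 0.123 in the MU input.

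Cxcl1, Cxcl2 and Cxcl5 encode chemokines that attract neutrophils through the receptor Cxcr2, and their genes lie in 1 cluster on chromosome 5 (GRCm38). Cxcl5 (chr5:90759360-90761624, plus strand) was the most abundant member of the WT input, at 227 FPKM, and of the MU input, at 383. Cxcl1 (chr5:90891241-90893115, plus strand) stood at 2.76 in the WT input and 104 in the MU input. Its neighbour Cxcl2 (chr5:90903871-90905938, plus strand), which starts 10.8 kb past the end of Cxcl1, ran the other way, at 21.3 and 8.17.

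The other listed genes of that cluster did not follow 1 direction. Cxcl3, a further chemokine of this class, stood at 48.8 FPKM in the WT input and 21.2 in the MU input, like Cxcl2 higher in WT. The platelet chemokine gene Ppbp stood at 0.280 and 2.03, and Pf4 at 0.309 and 0.108, both too low for the pseudocount of 0.01 to leave the fold untouched. Across these 6 genes the MU input was the higher for Cxcl5, Ppbp and Cxcl1 and the lower for Pf4, Cxcl3 and Cxcl2.

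**Figure D2:**
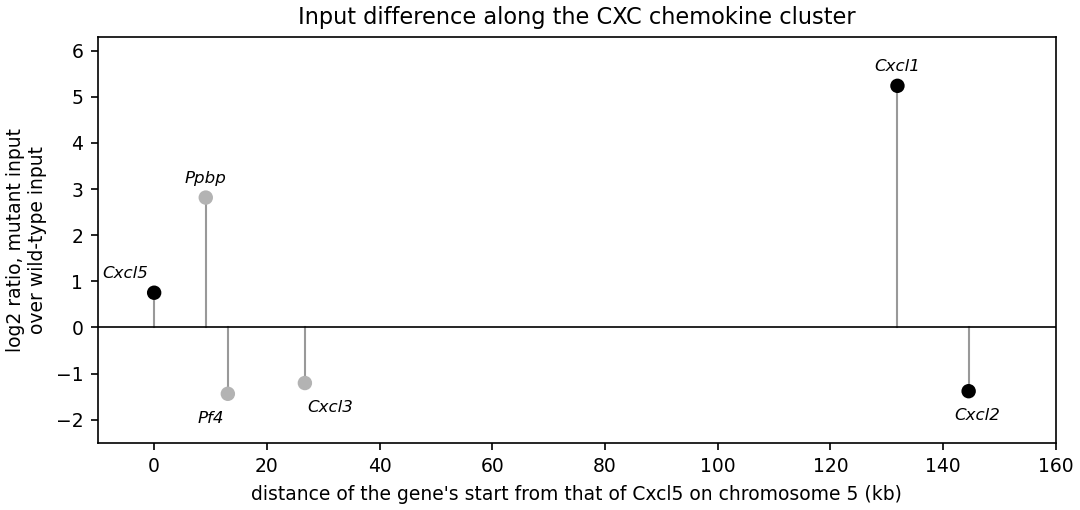
Log2 ratio of the MU input over the WT input for 6 CXC chemokine genes against the distance of their start from that of Cxcl5 (kb); black points are members, grey points other genes of the cluster. Cxcl1 stands far above 0 while Cxcl2, its neighbour, stands below 0 at a 2.60-fold excess in the WT input.

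The promoters of these genes were read because the adjacent genes Cxcl1 and Cxcl2 differed in direction between the inputs. RefSeq promoter windows (GRCm38.p6, 250 bases before to 50 after the start) were present for 6 of 9 members: Ccl20, Csf1, Cxcl1, Cxcl2, Lcn2 and Lif. They were searched on both strands for the textbook kB motif, the binding sequence of NF-kB dimers. It was found in 5 of these 6 windows, all but that of Lcn2, and in 8.46% of the 32851 windows of the table. The missing match does not show that Lcn2 lacks a kB site. The members were picked as inflammatory genes, and these shares were not compared by a test. Cxcl1 and Cxcl2 held the same 11 bases, in which 2 overlapping matches lie, 1 on each strand, and the longest stretch that their 250 upstream bases share is 14 bases, GGGAATTTCCCTGG. The windows of 4 members are shown 5′ to 3′ along the gene's strand, with the matched bases in capitals; they lie at chr5:90891125-90891214 (plus), chr5:90903763-90903852 (plus), chr1:83116646-83116735 (plus) and chr3:107760574-107760663 (minus).
Cxcl1: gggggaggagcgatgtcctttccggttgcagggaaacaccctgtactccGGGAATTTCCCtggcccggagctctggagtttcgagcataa
Cxcl2: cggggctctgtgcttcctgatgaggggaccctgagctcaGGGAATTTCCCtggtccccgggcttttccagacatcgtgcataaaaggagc
Ccl20: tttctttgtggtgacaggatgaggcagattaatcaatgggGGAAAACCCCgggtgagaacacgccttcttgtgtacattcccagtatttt
Csf1: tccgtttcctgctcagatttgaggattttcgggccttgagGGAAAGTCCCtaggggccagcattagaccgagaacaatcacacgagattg

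In these windows the match begins 71 bases before the RefSeq start in Cxcl1, 97 in Cxcl2, 80 in Ccl20 and 154 in Csf1. Whether these matches bear on the input differences of Cxcl1 and Cxcl2 was not tested. A match of letters is a description and no evidence of binding, and binding of NF-kB was not measured.

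The remaining chemokines among the members act on other leukocytes. Ccl2 (chr11:82035571-82037453, plus strand), which attracts monocytes through Ccr2, stood at 86.4 FPKM in the WT input and 77.4 in the MU input, the most even of the chemokine members. Ccl20 (chr1:83116766-83119167, plus strand), the ligand of Ccr6, stood at 59.0 and 157. Cxcl16 (chr11:70453983-70459984, minus strand), which is made as a membrane-bound protein and is the ligand of Cxcr6, stood at 11.01 and 0.123. At 0.123 FPKM the RNA was close to the lowest levels in the table, with an input rank at the 3.83rd percentile of its genes.

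Csf1 and Lif are cytokines rather than chemokines, and Lcn2 is a secreted lipocalin that binds bacterial siderophores. Csf1 (chr3:107741048-107760469, minus strand), the growth factor of macrophages, stood at 95.9 FPKM in the WT input and 236 in the MU input. Lif (chr11:4257557-4272514, plus strand), a cytokine of the IL-6 family, stood at 5.03 and 6.05. Lcn2 (chr2:32384633-32388252, minus strand) stood at 3.903 and 100.4, a pattern close to that of Cxcl1. The order of the members from high to low was Cxcl5, Csf1, Ccl2, Ccl20, Cxcl2, Cxcl16, Lif, Lcn2 and Cxcl1 in the WT input. In the MU input it was Cxcl5, Csf1, Ccl20, Cxcl1, Lcn2, Ccl2, Cxcl2, Lif and Cxcl16. With 1 library each, no spread was available to say which neighbours in these orders differ.

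For each member, the named gene with the most similar levels was found by Euclidean distance over log2(level + 1) in the 4 libraries, among 11059 named genes. Cxcl1 was the nearest gene to Lcn2, at a distance of 0.592. The nearest to Cxcl1 was Irf7, an interferon-response transcription factor gene, at 0.533. For 6 others it was Stard10 for Ccl2, Fkbp11 for Cxcl2, Tmem176b for Cxcl5, Psmb7 for Ccl20, Lgals3bp for Csf1 and Tpbg for Lif, at distances from 0.118 to 0.883.

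The second comparison was between IP and input for WT Lin28b, and asked which of these mRNAs the protein recovered. None of the 9 members was enriched, that is, at least 2-fold above input with an authors' q-value under 0.05, a call that 7.40% of the genes of the WT table received. Lcn2 and Cxcl2 were called lower by the same limits, 2 of 9 against 21.5% of all genes. The members had a median log2 ratio of IP over input of −0.64, and all genes of the table had −0.29. The q-value compares 2 libraries and not 2 conditions.

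Cxcl5 had the highest WT ratio of the members, with an IP level of 319 FPKM against 227 for its input, a log2 ratio of 0.49. Ccl20 stood at 62.2 against 59.0 (0.08), with a q-value of 0.659 in the authors' deposited table. Ccl2 stood at 82.8 against 86.4, a log2 ratio of −0.06 that became 0.23 once the ratios were centred on the median of all genes. These 3 abundant mRNAs thus stood at 0.958-fold to 1.40-fold of their input.

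The other members lay below their input in the WT IP. Cxcl1 stood at 1.82 FPKM against an input of 2.76, a log2 ratio of −0.60. Cxcl16 stood at 7.05 and 11.01 (−0.64), and Csf1 at 57.5 and 95.9 (−0.74). Lif stood at 2.63 and 5.03 (−0.93), just short of the 2-fold limit. Cxcl2 at 7.90 and 21.3 and Lcn2 at 1.40 and 3.903 passed it, with log2 ratios of −1.43 and −1.48.

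The third comparison was between IP and input for MU. None of the 9 members was enriched, against 5.98% of the genes of the MU table. Ccl2, Cxcl1, Cxcl2, Ccl20 and Lcn2 were called lower, 5 of 9 against 36.0% of all genes. The median log2 ratio of the members was −1.70, and that of all genes −0.61. All 5 genes called lower have short spans, as does Cxcl5, and the values by gene span are given further on.

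Lcn2 had the lowest ratio, at 18.1 FPKM in the MU IP and 100.4 in the MU input, 5.56-fold below it. Cxcl2 stood at 1.85 against an input of 8.17, Cxcl1 at 23.8 against 104, and Ccl2 at 19.1 against 77.4, each 4.06-fold to 4.39-fold below input. Ccl20 stood at 48.5 and 157, 3.24-fold below. Cxcl5 stood at 199.7 and 383, a log2 ratio of −0.94 that misses the 2-fold limit. Cxcl16 stood at 0.0561 and 0.123, and its log2 ratio of −1.01 received no call since the q-value in the authors' deposited table was 0.0871.

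The cytokine genes had the highest MU ratios of the members. Csf1 was the only member above its input in the MU IP, at 308 FPKM against 236, a log2 ratio of 0.38. Lif stood at 5.20 against 6.05, a log2 ratio of −0.22 that became 0.39 after centring on the median of all genes. Csf1 and Lif have the longest gene spans of the members, 19.4 kb and 15.0 kb.

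**Figure D3:**
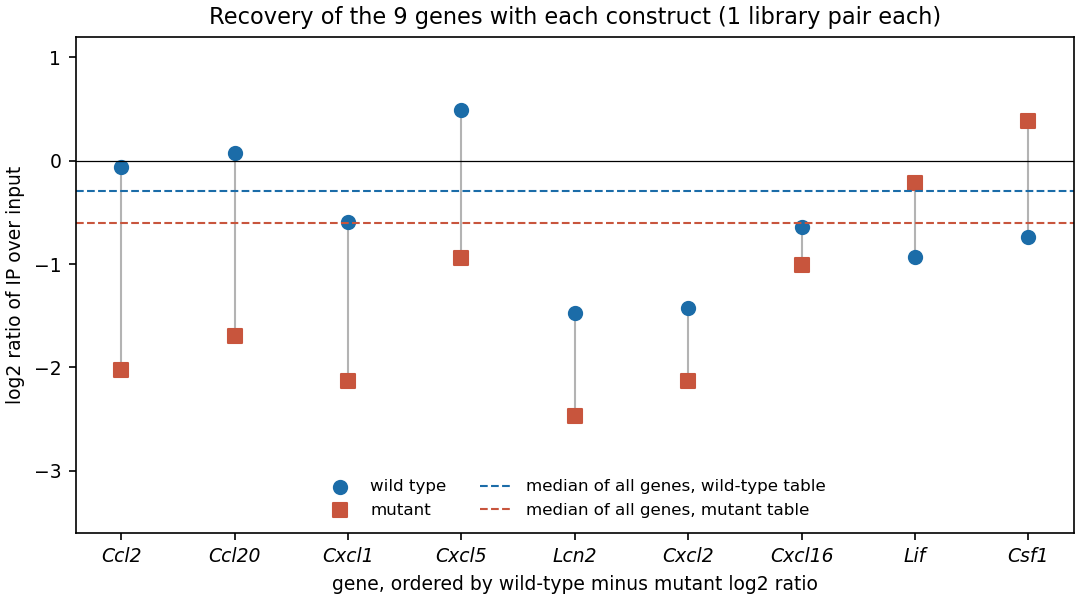
Log2 ratio of IP over input for the 9 genes with WT Lin28b (blue circles) and MU (red squares), 1 library pair per point, with the median of all genes of each table as dashed lines. The WT point lies above the mutant point for 7 genes, from Ccl2 with a difference of 1.96 to Cxcl16 with 0.36, and below it for Lif and Csf1; it is the higher for 63.2% of all genes.

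The fourth comparison set the ratios of the constructs against each other, since the mutant is described as deficient in RNA binding. Lin28b RNA itself stood at 13.8 FPKM in the WT input and 30.01 in the MU input, and its part in the ratios was not tested. The WT ratio was the higher for 7 of 9 members, all 6 chemokine genes and Lcn2, although for Cxcl16 this turned with a pseudocount of 0.1 (−0.12). The same direction held for 63.2% of all genes in both tables and for 77.8% of the protein-coding genes in the span range of the 7 shorter members, and within span bins it held for 5 of 9 members. It was lower for Csf1 and Lif. The excess was at least 2-fold for Ccl2, Ccl20, Cxcl1 and Cxcl5, 4 of 9 against 26.1% of all genes, with log2 differences of 1.96, 1.77, 1.53 and 1.43. Lcn2 lay just under that limit at 0.997, and Cxcl2 at 0.71. Csf1, with −1.12, was the 1 member at least 2-fold higher in MU, against 7.37% of all genes, and Lif followed with −0.71. The median difference was 0.997 over the members and 0.32 over all genes in both tables.

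Ccl2 had the most even inputs of the members. It stood at 86.4 and 77.4 FPKM in the WT and MU inputs and at 82.8 and 19.1 in the IPs, so that the WT IP held 4.34 times the mutant level. The authors scaled each table on its own. Set against genes of similar span, the log2 difference of Ccl2 fell from 1.96 to 1.10. For Cxcl5 the order of the constructs turned between input and IP, from 227 and 383 in the inputs to 319 and 199.7 in the IPs. Ccl20 did likewise, from 59.0 and 157 to 62.2 and 48.5. Csf1 was 2.47-fold higher in the MU input and 5.36-fold higher in the MU IP. Cxcl1 and Lcn2 were measured in WT at levels from 1.40 to 3.903, so their WT ratios rest on lower levels than those of Cxcl5, Ccl2 and Ccl20.

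The ratios followed gene span in both tables, and the members are not spread evenly over it. When protein-coding genes were divided by span into 10 bins of equal size, Ccl2, Ccl20, Cxcl1, Cxcl2, Cxcl5 and Lcn2 all fell in the shortest, with spans up to 4.65 kb. In that bin of 1126 genes the median log2 ratio was −0.99 in WT and −1.84 in MU. Among 1291 protein-coding genes within the span range of the 7 shorter members, 1.88 kb to 6.002 kb, 69.8% were called lower in MU and 42.8% in WT. The WT ratio was at least 2-fold above the MU ratio for 39.5% of them. Among 927 protein-coding genes within the span range of Lif and Csf1, 5.39% had an MU ratio at least 2-fold above the WT ratio, as Csf1 did.

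Set against the median of their own span bin, an alternative added after the values were seen, the members looked different. None of the 5 members called lower in MU, and neither of the 2 in WT, kept that call. Ccl2 alone kept a WT excess of at least 2-fold, at a log2 difference of 1.10. Ccl20 came to 0.92, Cxcl1 to 0.68, Cxcl5 to 0.57 and Lcn2 to 0.14, while Cxcl2 and Cxcl16 turned to −0.15 and −0.16. Cxcl5 then passed the limit for enrichment in WT, with a log2 value of 1.48, and stood at 0.91 in MU. Ccl20 came to 1.07 in WT, but its q-value of 0.659 gave no call. The q-values used here are the authors' own for the uncentred ratios, and the centred values have none. The MU excess of Csf1 and Lif became −1.44 and −1.02. Whether span, transcript length or RNA integrity moves these ratios was not tested.

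**Figure D4:**
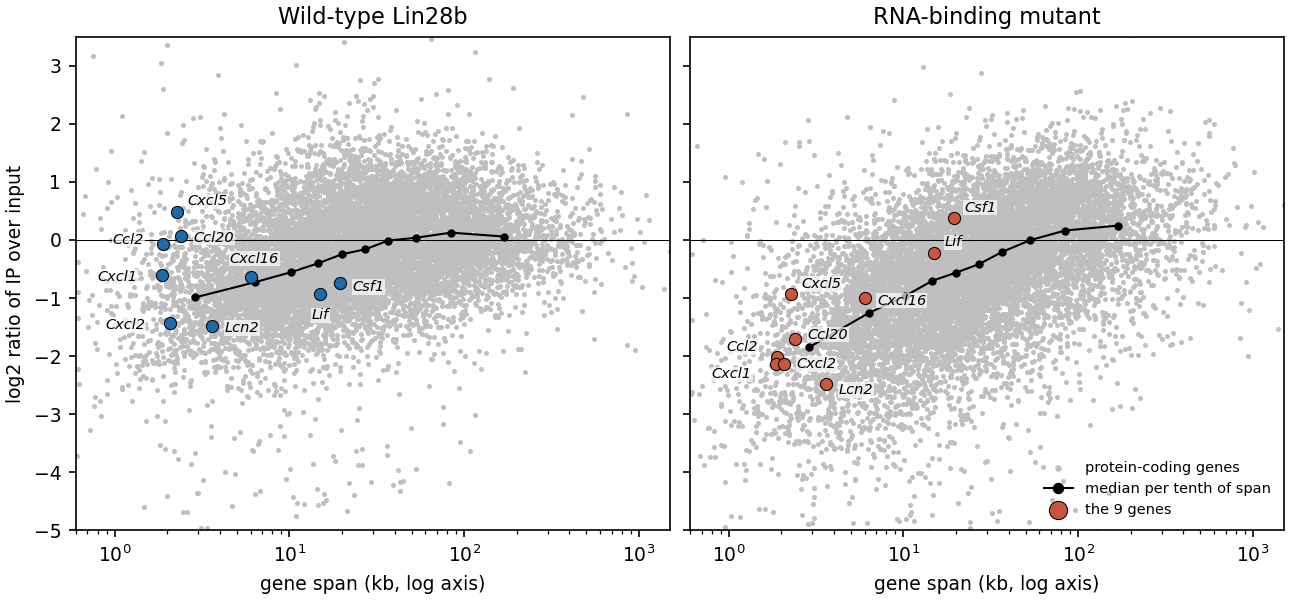
Log2 ratio of IP over input against gene span (kb, log axis) for 11260 protein-coding genes (grey), with the median of each span bin (black) and the 9 genes (coloured), for WT (left) and MU (right); 128 and 146 genes lie outside the axes. In the WT panel Cxcl5, Ccl20 and Ccl2 lie farthest above the black line (1.48, 1.07 and 0.93), and in the MU panel Csf1, Cxcl5 and Lif do (0.94, 0.91 and 0.48).

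The deposited peak lists show where along an RNA recovery was concentrated, and the folds given are the authors' own. A peak was counted for a gene where its summit lay in the gene's span on the same strand. Cxcl5 was the only member with a WT peak, 1 of 9 against 25.1% of all genes in both tables. Cxcl5 and Csf1 held MU peaks, 2 of 9 against 18.6%. In the span range of the shorter members, 10.7% of protein-coding genes held a WT peak and 1.94% an MU peak. In the span range of Lif and Csf1 these shares were 23.7% and 11.8%. Ccl2, Cxcl1, Cxcl2, Cxcl16, Ccl20, Lif and Lcn2 held no peak in either list, on either strand.

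In Cxcl5 the WT peak (chr5:90760847-90761559) had a fold of 1.97 and its summit lay 679 bases from the gene's end. The MU peak (chr5:90761188-90761392) had a fold of 1.56 and lay wholly within it, sharing all of its 205 bases. Both folds are low within their lists, whose medians are 3.77 for WT and 4.22 for MU.

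Csf1 held 4 MU peaks and no WT peak, at IP levels of 308 FPKM in MU and 57.5 in WT. The one of highest fold (2.70, chr3:107741150-107741642) had its summit 421 bases from the gene's end, and further peaks of folds 1.47 and 1.90 lay at 972 and 1425 bases from it. The last one (chr3:107748603-107749305, fold 1.57) lay 7613 bases from the end. All 4 folds are low within the MU list, whose median is 4.22, at percentiles from 0.791 to 21.1. Exons were not assigned, since no exon models were used. Ccl2 and Ccl20 had no peak although their WT IP levels were 82.8 and 62.2 FPKM. Of the 178 protein-coding genes in the span range of the shorter members with a WT IP level of at least 50, 34.3% held a WT peak. Of the 98 such genes with an MU IP level of at least 50, 8.16% held an MU peak. In the span range of Lif and Csf1, 47.6% of the 63 genes with an MU IP level of at least 50 held an MU peak. There, 67.0% of the 94 genes with a WT IP level of at least 50 held a WT peak.

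**Figure D5:**
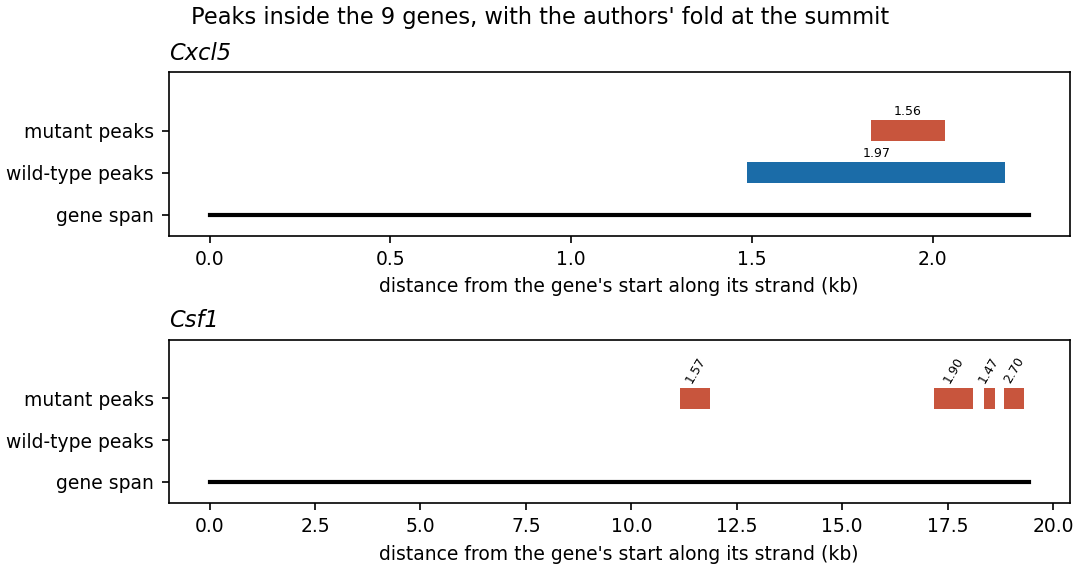
Peaks of the WT list (blue) and the MU list (red) along Cxcl5 and Csf1, in kb from the gene's start along its strand, each with the authors' fold at its summit; the black line is the gene span. The Cxcl5 peaks overlap in the last part of the gene, and 3 of the 4 Csf1 peaks lie near its end with folds from 1.47 to 2.70.

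The wider families of these genes were described from lists of chemokine ligands, cytokines, receptors and regulators, and called genes outside the naming rule are given after their values were seen. For every list the counts stand against 7.40% of all genes enriched and 21.5% lower in WT, and 5.98% and 36.0% in MU. Of the chemokine ligands, 19 of 38 were listed in both tables, 13 of them besides the members. Of these 13, none was enriched with either construct, 3 were called lower in WT (Ccl8, Ccl27a and Cxcl17) and 10 in MU, or 6 after centring on the median of all genes and 5 within the span bins. Their WT ratio was the higher for 11 of 13, against 63.2% of all genes, with a median difference of 1.22, which became 0.91 and 0.37 under those centrings. Ccl5, which attracts T cells, stood at 1.66 FPKM in the WT IP against 2.60 in its input, and at 2.06 in the MU IP against 25.6. Ccl9 stood at 11.3 against 13.4 in WT and at 0.324 against 2.06 in MU. Ccl8 was listed at 0 in both IPs, with inputs of 0.831 and 2.26, and Ccl27a, Ppbp and Cxcl17 were 12.1-fold, 6.19-fold and 8.995-fold lower in the MU IP than in its input.

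Cxcl10, an interferon-induced chemokine gene named after its values were seen, stood at 5.12 FPKM in the WT input and 77.6 in the MU input. Ccl5 likewise was 9.83-fold higher in the MU input. Ccl9 ran the other way, 6.49-fold higher in the WT input.

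Among 24 inflammatory cytokines, 13 were listed in both tables, of which Csf1 and Lif are members. Of the other 11, 1 was enriched in WT (Kitl) and 2 in MU (Kitl and Cntf). Clcf1 and Ctf1 were called lower in WT, and 6 were in MU. Kitl, the ligand of the receptor Kit, was 3.83-fold above input in WT and 2.68-fold above it in MU, with 9 and 6 peaks. The span of Kitl is 84787 bases, and long genes had the higher median ratios, while that of Cntf is 1973 bases. Mif, a short gene for a secreted inflammatory factor, was 5.91-fold lower in the MU IP and 1.83-fold lower in the WT IP. Il1rn, the interleukin-1 receptor antagonist gene, stood at 26.0 against 25.5 FPKM in WT and at 0.570 against 2.84 in MU. Ctf1, a cytokine gene of the IL-6 family, was 5.31-fold lower in the WT IP and was listed at 0 in the MU IP. Its inputs were 2.23 FPKM in WT and only 0.133 in MU, too low for the 0 to carry weight. Of 14 receptor genes for the members, Il6st, Lifr and Ackr3 were listed in both tables. Il6st and Lifr encode the receptor chains of Lif, and their log2 ratios were −0.05 and −0.35 in WT and 0.54 and 0.70 in MU. Their spans are 46017 and 106876 bases.

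Of 37 NF-kB pathway genes, 36 were listed in both, with 4 enriched in WT (Tlr4, Tlr3, Il1r1 and Tab3) and 3 in MU (Il1r1, Cyld and Tab3). Tlr4, Il1r1, Tab3 and Cyld are long, with spans from 54918 to 102701 bases, and Tlr3 spans 15416 bases. Called lower were 6 in WT and 5 in MU, the latter being Nfkbia, Bcl3, Irak2, Nfkbib and Tlr2. Their median log2 ratios were −0.30 and −0.17, against −0.29 and −0.61 for all genes. Nfkbia, the inhibitor that NF-kB itself induces, was 4.16-fold lower in the MU IP and 1.97-fold lower in the WT IP. Bcl3 and Nfkbib were 3.49-fold and 3.03-fold lower in MU, and Relb was 2.99-fold lower in WT. Of 17 factors that control the decay of inflammatory mRNAs, all 17 were listed, with 1 enriched and 0 lower in WT and 4 enriched and 1 lower in MU. The 4 enriched genes are long, with spans from 52835 to 88014 bases, and the median ratio of long genes was the higher. Rc3h1, which encodes Roquin-1, was enriched with both constructs, 2.04-fold and 2.95-fold, and Cnot1, Rc3h2 and Zc3h12c were enriched in MU, with 2.23-fold for Cnot1 and 2.19-fold for Rc3h2. Zfp36, the gene of tristetraprolin, stood at 0.937 against 4.109 FPKM in MU.

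Of 20 acute-phase and antimicrobial genes, 9 including Lcn2 were listed in both tables, with none enriched, 3 lower in WT and 4 lower in MU, against 21.5% and 36.0% of all genes. The genes called lower, Lcn2 among them, have short spans, up to 3746 bases. Cebpb and Cebpd, transcription factor genes of the acute-phase response, were lower with both constructs, 3.96-fold and 3.48-fold in WT and 3.02-fold and 3.03-fold in MU. Saa3, a serum amyloid gene, stood at 1.87 against 2.05 FPKM in WT and at 0.708 against 6.09 in MU. Within its span bin Lcn2 stood at −0.49 in WT and −0.63 in MU.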

How the data were processed

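The tools HOMER 4.11.1, bedtools, MACS2 2.2.7.1 and HISAT2 2.1.0 and the builds mm10 and GRCm38 are named per the submitters' processing notes. The deposited gene tables give 1 level per gene for IP and input; the headers name no unit, and the levels were read from the values as FPKM made by the authors. The authors' deposited log2 ratio equals log2((IP + 0.01)/(input + 0.01)), recomputed here. The authors' deposited p-value and q-value come from a test not given in the sources used here. The deposited peak lists give a score, a fold (ratio), and −log10 p and q per peak, called per IP and strand. Depth is unknown, so no counting interval was given.

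Calls needed a 2-fold ratio and an authors' q under 0.05. Calls on centred ratios or with other pseudocounts kept the authors' deposited q-values. Named genes were the 9 members, Lin28b and Actb, up to 4 called genes per list with the highest absolute log2 ratio and a level of at least 1 in the higher library, and each member's nearest gene, which for 1 member is not reported here. Members and lists were chosen with earlier results of these data known. Calls and peak counts were tested on simulated data (Python 3.11.15, pandas 2.3.3).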

Additional observations from a re-analysis of the deposited data

Results flagged for a closer look

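For 3 members the IP lay above input with one construct and below it with the other, and with 1 library pair each this difference was not tested. Ccl20 had a log2 ratio 1.77 higher in WT than in MU, although its WT value of 0.08 is close to 0. Cxcl5 had a log2 ratio 1.43 higher in WT. Csf1 ran the other way, with a WT minus MU difference of −1.12.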

How the results depend on the processing

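No paired analysis was possible because each group held 1 library. Centring each member on the median of its gene span bin, chosen after seeing the data, moved most counts: enriched members in WT from 0 to 1, lower members from 2 to 0 in WT and from 5 to 0 in MU, members with a 2-fold WT excess from 4 to 1 and with a 2-fold MU excess from 1 to 2. It also turned the MU log2 ratio of Ccl20 from −1.70 to 0.15, and the cause was not tested. Centring on the median of all genes gave 2 members with a 2-fold MU excess, Csf1 and Lif. With only peaks of fold at least 5, members with a peak numbered 0 in WT and 0 in MU. The other counts, under pseudocounts of 0.1 and 1, a level of at least 1, peaks of −log10 q at least 5, any overlap and either strand, stayed within 1.5 times the values reported. Depth is unknown, so no counting error was available, and Cxcl16 in MU is limited by its low level.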
